A study of Homo sapiens with 20 samples.

Results

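The 47 genes described here encode the proteins that copy DNA and carry a cell from G1 into S phase. They were chosen by symbol from a list of DNA replication and G1/S genes, with the transcript that held the most reads standing for each symbol, and all 47 were found among the 27896 symbols of the count table and passed the filter that left 16432 genes for testing. By role they are 11 genes of origin licensing, 6 of helicase activation, 15 of the polymerases, the sliding clamp and Okazaki fragment joining, 4 of nucleotide supply, 4 of cyclin E and E2F, and 7 of chromatin and repair at the replication fork. Their mean read counts over the libraries ran from 563 for CCNE2 to 20537 for MCM7.

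In late mitosis and G1 the origin recognition complex, CDC6 and CDT1 load rings of the MCM2 to MCM7 helicase onto origins. Cyclin E with CDK2, and the DBF4-dependent kinase CDC7, then allow CDC45 and the GINS complex to join and switch the helicase on, and polymerases alpha, epsilon and delta copy the opened strands behind it. Many of these genes are transcribed under E2F transcription factors, which are held in check by the retinoblastoma family until cyclin-dependent kinases release them, and their transcripts are typically most abundant in late G1 and S phase. BCOR is a corepressor that binds BCL6 and is a subunit of a Polycomb complex, the noncanonical PRC1.1 complex.

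RNA came from HEK293-GR cells, a human embryonic kidney line that expresses the glucocorticoid receptor constitutively, so every group carries the added receptor. The 4 groups, with 4 libraries each, were siBCOR dex, siBCOR vehicle, siNON dex and siNON vehicle: siBCOR cells received a pool of small interfering RNAs against BCOR, siNON cells a non-targeting pool, both at 20 nM for 72 h, followed by 100 nM dexamethasone (dex, a synthetic glucocorticoid) or ethanol vehicle for 6 h. All cells were kept in medium stripped of steroids. BCOR chromatin binding was measured by ChIP-seq in cells given dex or vehicle for 1 h, with 2 libraries per treatment. Levels are given as CPM, read counts scaled to library size, and differences as log2 fold changes ± standard error. A gene was called when its adjusted p, from edgeR's quasi-likelihood F test with Benjamini-Hochberg adjustment over all 16432 genes, was under 0.05.

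Counts over the chosen transcripts ran from 18580291 to 28054809 per library. BCOR itself averaged 14.7 ± 0.706 CPM in siBCOR dex, 22.4 ± 0.795 in siBCOR vehicle, 93.8 ± 15.9 in siNON dex and 196 ± 29.4 in siNON vehicle (SD, n = 4 each), and each of the 8 siBCOR libraries lay below each of the 8 siNON libraries. BCOR was also lower with dex than with vehicle, at -0.60 ± 0.12 (adjusted p = 0.00155) in siBCOR and -1.06 ± 0.11 (adjusted p = 1.45e-06) in siNON cells. The receptor gene NR3C1 averaged 864 ± 23.2, 1107 ± 36.4, 706 ± 29.7 and 998 ± 65.3 CPM in the same groups. NR3C1 was higher in siBCOR dex than in siNON dex, at 0.29 ± 0.05 (adjusted p = 0.000876). In vehicle its difference, 0.15 ± 0.05 (adjusted p = 0.0647), was not called. With dex NR3C1 was lower, at -0.36 ± 0.05 (adjusted p = 8.82e-05) in siBCOR and -0.50 ± 0.05 (adjusted p = 1.8e-06) in siNON cells. All 7 markers of HEK293 cells on a list passed the filter, with VIM at 318 to 602 CPM and NEFL at 127 to 221 CPM over the libraries, while PTPRC and CD3E (leukocytes), ALB and APOA1 (liver) and DCN and LUM (fibroblasts) did not. Of the other markers, COL1A1 and COL3A1 of fibroblasts stood at 22.0 to 45.4 and 2.98 to 7.36 CPM and CD68 at 8.73 to 14.9 CPM. Some libraries stood apart from the others of their group: 1 axis held 39.1% of the variance within groups, with replicate 4 of siNON dex and replicate 3 of siNON vehicle at one end (positions 0.49 and 0.48) and siBCOR vehicle replicate 2 at the other (-0.44). Among the 47 genes MCM8, ATAD2, CCNE2 and BLM had the highest weights on that axis (2.12, 1.99, 1.82 and 1.67 SD of the weights of all genes) and CDT1 and POLD1 the lowest (-1.39 and -1.30). Of the 9 members higher in siBCOR dex than in siNON dex, 8 had a positive weight, and of the 24 lower, 21 had a negative one. The part of this axis in the results was not tested, and values without both siNON libraries are given for called members with a weight beyond 1 SD. Those libraries were picked after the values were seen. Where a library left out lay nearest to the other group, a larger difference follows from leaving it out.

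BCOR depletion went with lower transcript levels of many of these genes. In dex, 24 of the 47 were lower in siBCOR than in siNON cells and 9 were higher, where 18.8% and 20.7% of all genes tested were called lower and higher (39.5% in either direction). In vehicle, 16 were lower and 4 higher, against 8.23% and 8.87% of all genes. The median log2 fold change of the 47 was -0.19 in dex and -0.11 in vehicle, where the median over all genes was 0.02 in both. The 15 genes lower in both treatments were CDC6, CDT1, MCM2, MCM3, MCM5, CDC45, POLD1, RFC2, FEN1, LIG1, RRM2, TK1, E2F1, UHRF1 and CHAF1B, which is 15 of the 16 lower in vehicle and 15 of the 24 lower in dex. Of all genes tested 1062 were lower in both, which is 78.6% of those lower in vehicle and 34.4% of those lower in dex. POLD3 and CCNE1 were higher in both. The 2 comparisons share no library. In dex all 4 siBCOR libraries lay below all 4 siNON libraries for 23 members and above for 6, where 17.6% and 16.6% of all genes did so. In vehicle they lay below for 11 and above for 4, against 7.92% and 10.1% of all genes. Without the 2 siNON libraries that stood apart, 26 members were lower and 10 higher in dex, and 20 were lower and 2 higher in vehicle. Calls over all genes moved too. In dex they went from 3085 lower and 3406 higher of 16432 to 4519 and 4376 of 16527. In vehicle they went from 1352 lower and 1458 higher to 2493 and 1523 without these 2 libraries. With siBCOR vehicle replicate 2 left out as well, the vehicle values of CDC45, CDT1, CHAF1B, E2F1, LIG1, MCM2, MCM3, MCM5, POLD1 and RFC2 lay 1.52 to 1.81 times as far below 0. The other members lower in vehicle moved by less. These libraries were chosen after the values were seen. For CDC45, CHAF1B, E2F1, LIG1, MCM5 and RFC2, siBCOR vehicle replicate 2 was the highest of its group and siNON vehicle replicate 3 the lowest. Leaving both out widens the gap by itself. In dex the number lower was 23 to 25 whichever library was left out, whereas the number higher was 5 without siBCOR dex replicate 4, 4 without siNON dex replicate 1 or 2, and 3 without siNON dex replicate 3. In vehicle the number lower was 8 without siBCOR vehicle replicate 1 or 3, 9 without siNON vehicle replicate 4 and 10 without siNON vehicle replicate 1. The number higher in vehicle was 1 or 2 when any library other than siBCOR vehicle replicate 2 or 4 or siNON dex replicate 4 was left out. It was also 1 under 2 other scalings, beside 16 lower with relative log expression and 13 with the upper quartile, and relative log expression gave 1048 genes higher and 1539 lower in all, against 1458 and 1352 with the scaling used here (TMM). RNA from a whole culture cannot tell fewer cells in S phase from less of these transcripts per cell.

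**Figure D1:**
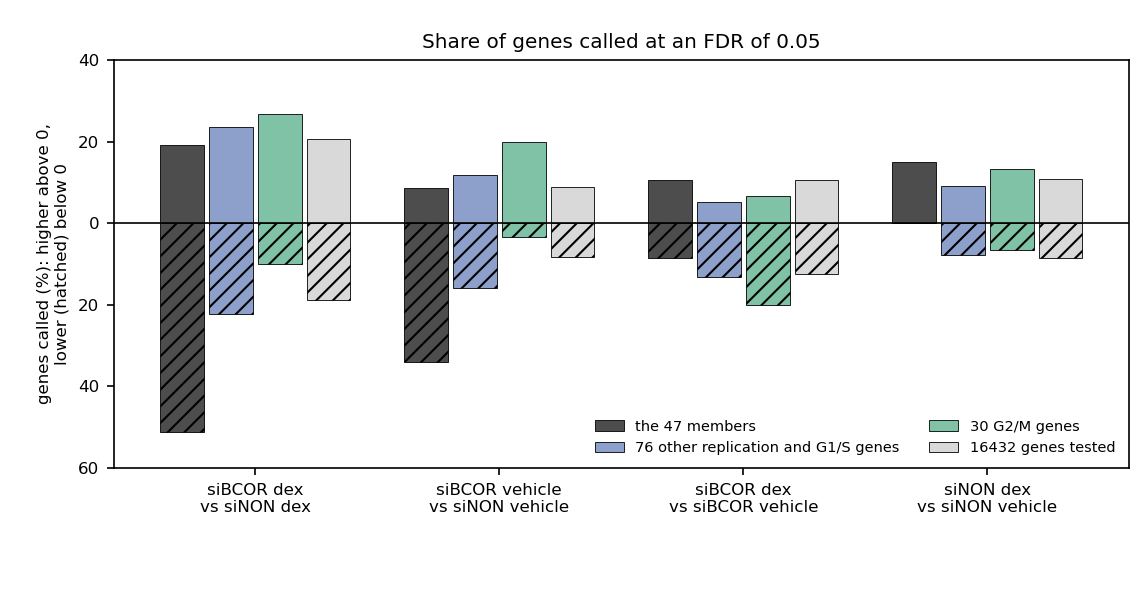
Share of genes called at an FDR of 0.05 (percent; higher above 0, lower hatched below 0) in each comparison, for the 47 members, 76 other replication and G1/S genes, 30 G2/M genes and the 16432 genes tested. In siBCOR dex against siNON dex 24 of the 47 members were lower and 9 higher, beside 18.8% and 20.7% of all genes.

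Dex by itself moved fewer of them. In siBCOR cells 5 were higher and 4 lower with dex than with vehicle, where 10.5% and 12.5% of all genes were called, and in siNON cells 7 were higher and 0 lower, where 10.7% and 8.64% were called. These shares of the 47 lie near those of all genes for higher calls. In siNON cells, at an unadjusted p under 0.05, 11 of the 47 differed in either direction, beside 4910 of all 16432 genes tested. The number of members called lower there was 2 with DESeq2, 1 with either of 2 other scalings (beside 6 higher) or with no filter (beside 2 higher), 3 without siNON dex replicate 4 and 1 without siNON vehicle replicate 1. In siBCOR cells the number lower was 2 without siBCOR dex replicate 4 or siBCOR vehicle replicate 1. Without the 2 siNON libraries that stood apart 9 members were higher and 6 lower in siBCOR cells, beside 3106 and 2540 of all 16527 genes tested. All 4 dex libraries lay above all 4 vehicle libraries for 7 members and below for 7 in siBCOR cells, where 15.3% and 15.4% of all genes did so, and above for 8 and below for 0 in siNON cells, where 11.1% and 8.75% did. CDC6, SLBP and ATAD2 were higher with dex in both kinds of cell, which is 3 of the 5 in siBCOR and 3 of the 7 in siNON cells.

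**Figure D2:**
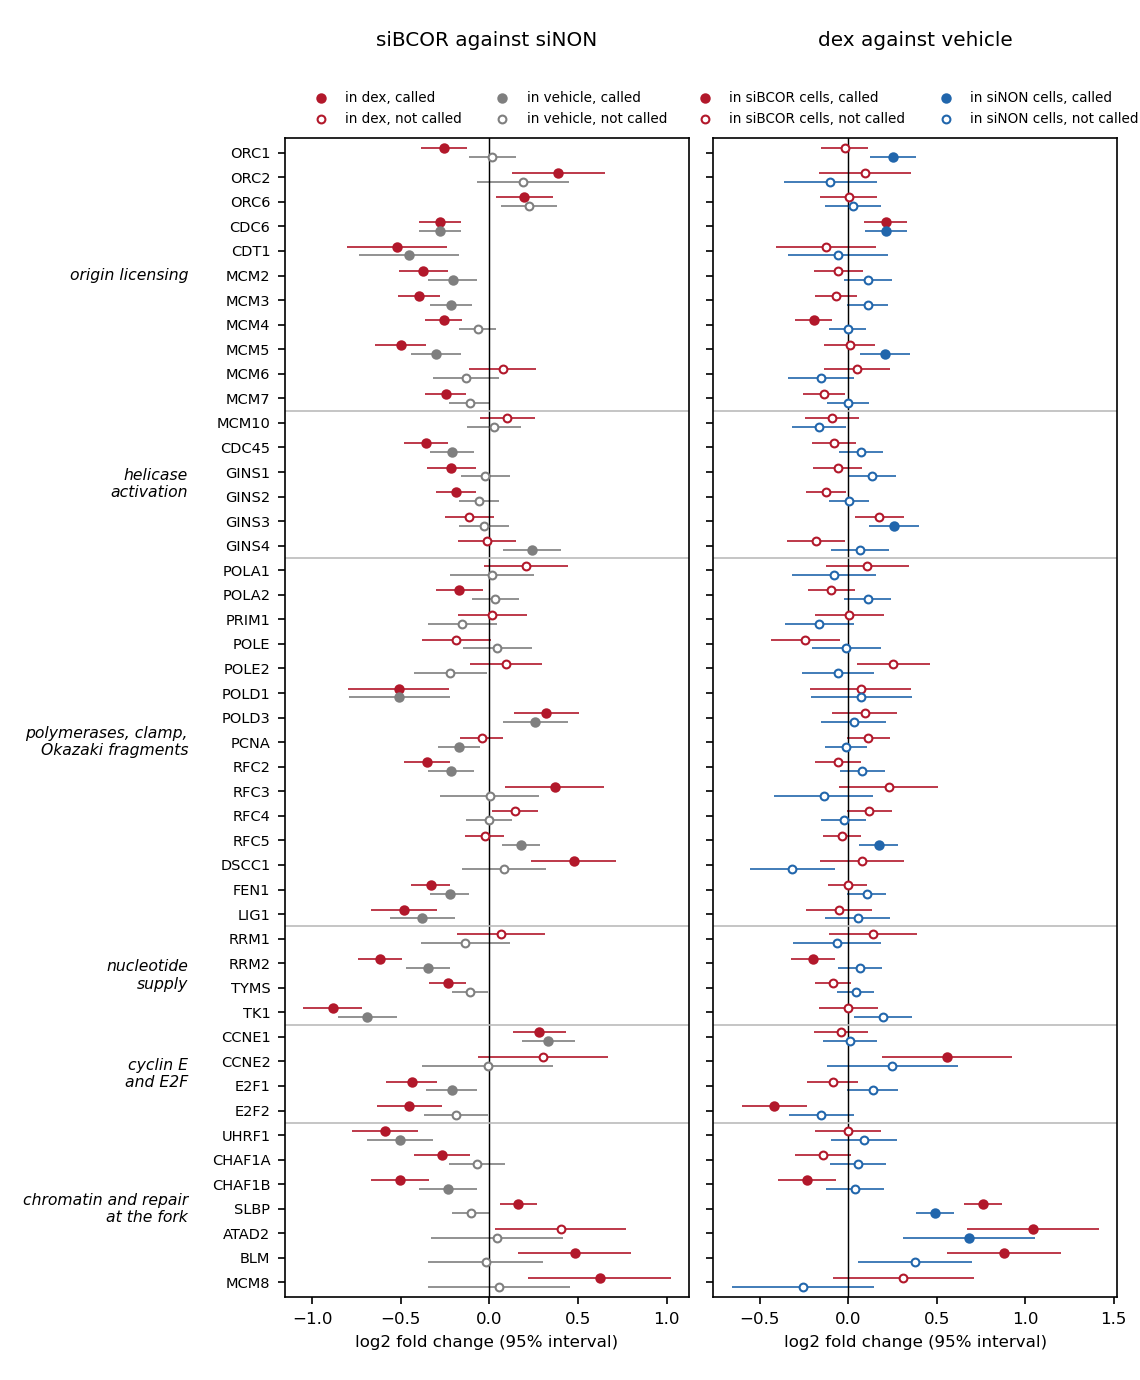
Log2 fold changes with 95% intervals of the 47 members, by role. The left panel has siBCOR against siNON in dex and in vehicle, the right panel dex against vehicle in siBCOR and in siNON cells, and filled points are called at an FDR of 0.05. TK1 has the lowest value on the left (-0.88 in dex) and ATAD2 the highest on the right (1.04 in siBCOR cells).

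Of the 4 genes of nucleotide supply, 3 were lower after depletion in dex and 2 in vehicle (all genes: 18.8% and 8.23%). In either treatment 0 were higher (all genes: 20.7% in dex and 8.87% in vehicle). TK1 (chromosome 17, 76170160 to 76183285, minus strand, hg19), thymidine kinase, salvages thymidine for the dTTP pool. It had 91.4, 93.8, 105 and 111 CPM in siBCOR dex and 93.6, 114, 90.1 and 103 in siBCOR vehicle. TK1 had 174, 189.6, 192 and 185 CPM in siNON dex and 164, 150.1, 162 and 170.2 in siNON vehicle. All 8 siBCOR libraries lay below all 8 siNON libraries. TK1 was 1.85-fold lower in siBCOR dex than in siNON dex, at -0.88 ± 0.08 (adjusted p = 9.99e-07) on the log2 scale, and 1.61-fold lower in siBCOR vehicle than in siNON vehicle, at -0.69 ± 0.08 (adjusted p = 2.84e-05). RRM2 (chromosome 2, 10262695 to 10271546, plus strand), the regulated small subunit of ribonucleotide reductase, had 247, 222, 241 and 229 CPM in siBCOR dex and 289, 259.9, 280.0 and 251 in siBCOR vehicle. RRM2 had 374, 385, 348 and 335 CPM in siNON dex and 347, 348, 334 and 346 in siNON vehicle. Again the siBCOR and siNON libraries did not overlap in either treatment. RRM2 changed by -0.62 ± 0.06 (adjusted p = 2.11e-06) in dex and -0.35 ± 0.06 (adjusted p = 0.000832) in vehicle, and within siBCOR cells it was lower with dex, at -0.20 ± 0.06 (adjusted p = 0.0195). That last call was lost without siBCOR dex replicate 2 or 4 or siBCOR vehicle replicate 1 or 3 (adjusted p = 0.0522 to 0.066). TYMS, thymidylate synthase, which makes dTMP from dUMP, had 195, 195, 198 and 198 CPM in siBCOR dex and 204, 221, 207 and 202 in siBCOR vehicle. TYMS had 232, 236, 239 and 218 CPM in siNON dex and 230.0, 227, 211 and 231 in siNON vehicle. The siBCOR dex libraries lay below all others. TYMS was lower in siBCOR dex than in siNON dex, at -0.24 ± 0.05 (adjusted p = 0.00193), while the difference in vehicle was -0.11 (95% interval -0.21 to -0.01, adjusted p = 0.137). The gene ENOSF1 lies over TYMS on the other strand and had 54.0% as many reads, and since no strand setting is given, reads of the overlapping ends may be shared. RRM1, the large reductase subunit, was called in no comparison: it averaged 239 ± 17.9 CPM in siBCOR dex, 217 ± 24.9 in siBCOR vehicle, 228 ± 43.5 in siNON dex and 238 ± 29.8 in siNON vehicle (SD, n = 4 each), and its change in dex was 0.07 (95% interval -0.18 to 0.32). Per length the 4 genes stood at 137 (TYMS), 88.3 (RRM2), 86.3 (TK1) and 71.5 (RRM1) RPKM, which scales reads by exon length and library size, as means over the 16 libraries.

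**Figure D3:**
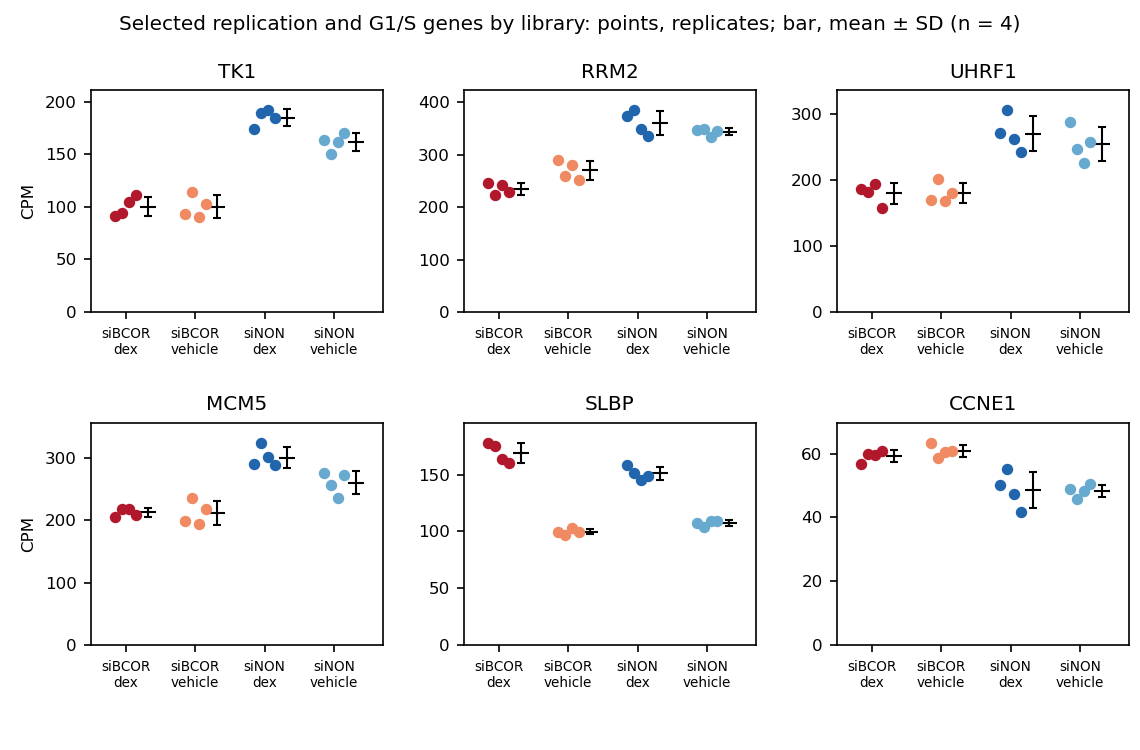
Level (CPM) of TK1, RRM2, UHRF1, MCM5, SLBP and CCNE1 in each of the 16 libraries, by group; points are replicates and bars show mean ± SD (n = 4). TK1, RRM2, UHRF1 and MCM5 are lower in both siBCOR groups than in the siNON group of the same treatment, CCNE1 is higher, and SLBP is higher in both dex groups.

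The promoters of TK1 and RRM2, and those of MCM3 and TYMS, which had a BCOR peak within 1 kb of the start, are shown because results on depletion and on peaks turn on these genes. Each is the 250 bases before the annotated start (for TK1 and RRM2, the downstream one of 2), from RefSeq on GRCh38.p14, with matches to the CCAAT box (CCAAT, or ATTGG on the other strand) and to 4 E2F-type words (TTTCCCGC, TTTGGCGC, TTTCGCGC, TTTGCCGC, on both strands) in capitals.
TK1 (chr17:78187053-78187302, minus strand): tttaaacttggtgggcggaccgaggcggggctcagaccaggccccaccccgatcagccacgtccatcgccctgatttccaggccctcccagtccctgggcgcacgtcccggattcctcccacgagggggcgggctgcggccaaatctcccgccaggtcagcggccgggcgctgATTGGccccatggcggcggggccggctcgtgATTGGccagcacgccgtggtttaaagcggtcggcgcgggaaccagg
RRM2 (chr2:10122489-10122738, plus strand): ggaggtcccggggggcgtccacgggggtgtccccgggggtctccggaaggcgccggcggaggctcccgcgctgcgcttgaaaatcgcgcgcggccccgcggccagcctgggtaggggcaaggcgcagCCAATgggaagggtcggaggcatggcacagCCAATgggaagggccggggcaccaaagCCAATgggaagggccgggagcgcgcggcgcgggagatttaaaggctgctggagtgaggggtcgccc
MCM3 (chr6:52284743-52284992, minus strand): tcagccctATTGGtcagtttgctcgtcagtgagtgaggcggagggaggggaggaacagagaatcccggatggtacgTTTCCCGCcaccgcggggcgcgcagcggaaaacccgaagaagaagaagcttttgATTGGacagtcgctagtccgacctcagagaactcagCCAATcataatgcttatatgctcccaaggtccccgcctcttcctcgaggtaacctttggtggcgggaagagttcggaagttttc
TYMS (chr18:657403-657652, plus strand): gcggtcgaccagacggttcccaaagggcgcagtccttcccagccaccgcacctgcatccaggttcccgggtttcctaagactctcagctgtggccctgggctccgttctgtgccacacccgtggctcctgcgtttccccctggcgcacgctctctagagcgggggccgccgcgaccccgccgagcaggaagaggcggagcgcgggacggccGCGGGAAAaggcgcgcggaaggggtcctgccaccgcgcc
The TK1 stretch holds the CCAAT box beginning at positions -77 and -46 from the start and the RRM2 stretch at -123, -93 and -66, each without an E2F-type word. Only exact copies of these words were sought, so a stretch without one may still hold an E2F site of other letters. MCM3 has 3 CCAAT boxes and an E2F-type word at -174, and TYMS has an E2F-type word at -39. A second E2F-type word of MCM3 begins at -4 and runs past the stretch shown.

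Of the 47 genes, 40 matched the RefSeq promoter table by symbol. An E2F-type word lay within 250 bases before to 50 after a start in 21 of the 40 (52.5%), against 3.31% of all 35116 promoters in the table and 6.24% of the 12305 tested genes that matched. The CCAAT box lay there in 24 of the 40 (60.0%), against 34.6% of all promoters and 42.6% of the tested genes that matched. Of the matched members lower after depletion in dex, 13 of 22 held an E2F-type word, beside 2 of 7 of those higher and 6 of 11 of those not called. In vehicle the counts were 8 of 15 lower, 0 of 2 higher and 13 of 23 not called. By role the word was in 6 of 9 licensing promoters, 3 of 5 of helicase activation, 7 of 13 of polymerases and clamp, 1 of 4 of nucleotide supply, 2 of 3 of cyclin E and E2F, and 2 of 6 of chromatin and repair.

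Origin licensing genes were lower after depletion in 8 of 11 cases in dex and 5 of 11 in vehicle (all genes: 18.8% and 8.23%). They were higher in 2 and 0 (all genes: 20.7% and 8.87%). MCM5 (chromosome 22, 35796116 to 35820495, plus strand), a subunit of the helicase ring, had 205, 218, 218 and 209 CPM in siBCOR dex and 198, 235, 193 and 218 in siBCOR vehicle. MCM5 had 289, 323, 301 and 287 CPM in siNON dex and 276, 257, 236 and 272 in siNON vehicle. In each treatment the siBCOR libraries lay below the siNON libraries. MCM5 changed by -0.50 ± 0.07 (adjusted p = 6.53e-05) in dex and -0.30 ± 0.07 (adjusted p = 0.00609) in vehicle. It was also higher with dex in siNON cells, at 0.21 ± 0.07 (adjusted p = 0.0406), a call lost without each of 9 of the 16 libraries in turn (adjusted p = 0.0506 to 0.236), and in a fit of the 2 groups alone, with DESeq2, with relative log expression scaling, with upper-quartile scaling, with no filter or without both siNON libraries that stood apart (adjusted p = 0.0659 to 0.173). MCM3, another subunit of the ring, had 451, 477, 444 and 461 CPM in siBCOR dex and 501, 497, 460.0 and 467 in siBCOR vehicle. MCM3 had 628, 603, 615 and 568 CPM in siNON dex and 568, 585, 507 and 579 in siNON vehicle. The groups did not overlap here either, and MCM3 changed by -0.40 ± 0.06 (adjusted p = 8.4e-05) in dex and -0.22 ± 0.06 (adjusted p = 0.0126) in vehicle, the second call lost in a fit of the 2 groups alone (adjusted p = 0.0605). CDC6, the loading ATPase, had 165, 163, 160.3 and 166 CPM in siBCOR dex and 151, 129.5, 147 and 138 in siBCOR vehicle. CDC6 had 198, 196, 189.8 and 211 CPM in siNON dex and 166, 164, 180.4 and 176 in siNON vehicle. It was lower after depletion in dex, at -0.28 ± 0.06 (adjusted p = 0.0016), and in vehicle, at -0.28 ± 0.06 (adjusted p = 0.00326), and higher with dex in siBCOR cells, at 0.21 ± 0.06 (adjusted p = 0.0124), and in siNON cells, at 0.21 ± 0.06 (adjusted p = 0.0121), the last call lost with no filter (adjusted p = 0.06). MCM4 had 475, 479, 474 and 516 CPM in siBCOR dex and 587, 561, 550.0 and 529 in siBCOR vehicle. MCM4 had 595, 585, 589 and 555 CPM in siNON dex and 603, 591, 572 and 565 in siNON vehicle. In siBCOR dex all 4 libraries lay below every other library. MCM4 was lower in siBCOR dex than in siNON dex, at -0.26 ± 0.05 (adjusted p = 0.00105), and than in siBCOR vehicle, at -0.20 ± 0.05 (adjusted p = 0.00752), with -0.07 (95% interval -0.17 to 0.04) for depletion in vehicle. ORC1, the ATPase of the origin recognition complex, had 56.3, 57.0, 56.5 and 54.2 CPM in siBCOR dex and 60.1, 60.1, 56.1 and 51.0 in siBCOR vehicle. ORC1 had 67.5, 65.2, 71.6 and 63.4 CPM in siNON dex and 58.6, 56.2, 54.8 and 55.0 in siNON vehicle. Its siNON dex libraries lay above every other library, and its calls were lower in siBCOR dex than in siNON dex, at -0.26 ± 0.06 (adjusted p = 0.00511), and higher with dex in siNON cells, at 0.25 ± 0.06 (adjusted p = 0.0069), the second call lost with no filter (adjusted p = 0.0501).

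The other licensing genes varied more. CDT1, the loading partner of CDC6 that geminin inhibits, averaged 102 ± 9.76 CPM in siBCOR dex, 111 ± 21.3 in siBCOR vehicle, 146 ± 14.9 in siNON dex and 152 ± 25.4 in siNON vehicle (SD, n = 4 each). It was lower after depletion in dex, at -0.52 ± 0.13 (adjusted p = 0.00746), and in vehicle, at -0.45 ± 0.13 (adjusted p = 0.0275), the second call lost without siBCOR vehicle replicate 1 or 3 or siNON vehicle replicate 1, 2 or 4 (adjusted p = 0.0687 to 0.0987), and in a fit of the 2 groups alone (adjusted p = 0.0833). Without the 2 siNON libraries that stood apart the changes were -0.63 (adjusted p = 0.000188) in dex and -0.62 (adjusted p = 0.000874) in vehicle. MCM2 changed by -0.37 ± 0.06 (adjusted p = 0.000537) in dex and -0.21 ± 0.06 (adjusted p = 0.036) in vehicle, the second lost without siBCOR vehicle replicate 1, 3 or 4 or siNON vehicle replicate 1, 2 or 4 (adjusted p = 0.079 to 0.119), and in a fit of the 2 groups alone, with upper-quartile scaling or with no filter (adjusted p = 0.0536 to 0.12). Without siNON vehicle replicate 3 the MCM2 change in vehicle was -0.31 (adjusted p = 0.00469). MCM7, the most abundant member per length, averaged 812 ± 41.8 CPM in siBCOR dex, 894 ± 45.5 in siBCOR vehicle, 964 ± 27.4 in siNON dex and 966 ± 51.1 in siNON vehicle (SD, n = 4 each). It was lower after depletion in dex, at -0.25 ± 0.06 (adjusted p = 0.00333). ORC2 and ORC6, subunits of the origin recognition complex, went the other way in dex, at 0.39 ± 0.12 (adjusted p = 0.0216) and 0.20 ± 0.08 (adjusted p = 0.0474). The ORC2 call was lost without siBCOR dex replicate 4 or siNON dex replicate 1, 2 or 3 (adjusted p = 0.059 to 0.0716), and the ORC6 call without each of 13 of the 16 libraries in turn (adjusted p = 0.0506 to 0.138), and in a fit of the 2 groups alone, with DESeq2, with relative log expression scaling, with upper-quartile scaling, with no filter or without both siNON libraries that stood apart (adjusted p = 0.0673 to 0.196). Without both siNON libraries that stood apart the changes were 0.44 (adjusted p = 0.00192) for ORC2 and 0.12 (adjusted p = 0.194) for ORC6. MCM6 was not called in any comparison, with 0.07 (95% interval -0.11 to 0.26) in dex and -0.13 (95% interval -0.32 to 0.06) in vehicle for depletion.

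**Figure D4:**
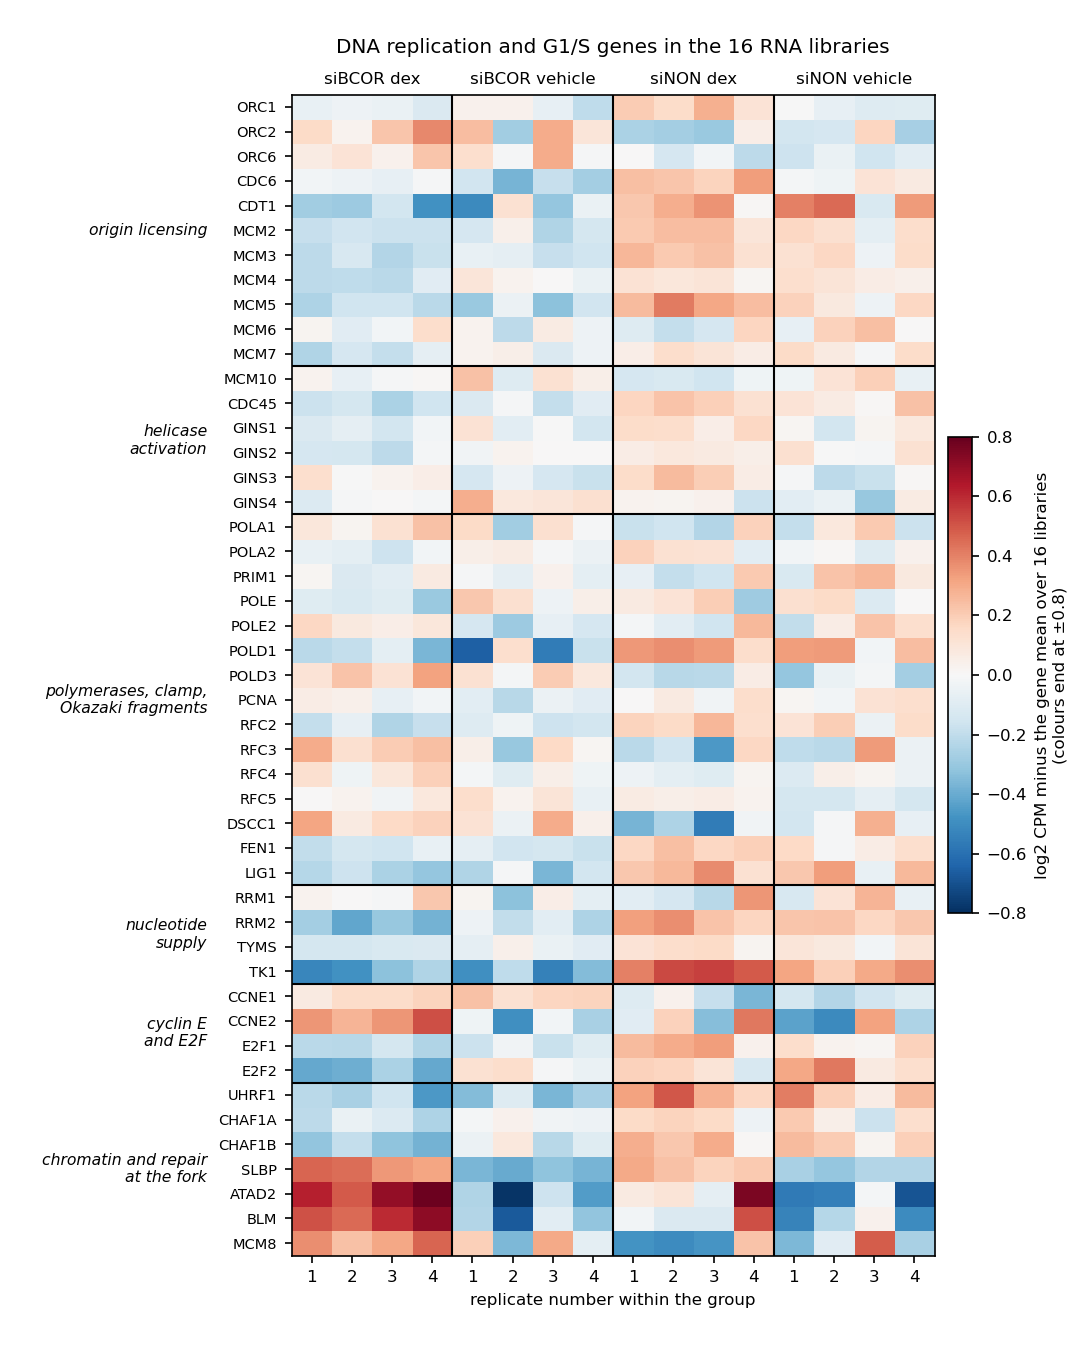
Level of each of the 47 members in each of the 16 libraries, as log2 CPM minus the mean of the gene over the libraries (colours end at ±0.8), in rows by role and columns by group and replicate. CDC6, MCM3, MCM5, CDC45, RFC2, FEN1, LIG1, RRM2, TK1, E2F1 and UHRF1 are below their mean in all 8 siBCOR libraries, ATAD2, BLM and SLBP are above it in siBCOR dex, and siNON dex replicate 4 differs from its group in ATAD2, BLM and MCM8.

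In helicase activation, 3 of 6 genes were lower after depletion in dex and 0 higher (all genes: 18.8% and 20.7%). In vehicle 1 was lower and 1 higher (all genes: 8.23% and 8.87%). CDC45, which joins the MCM ring and GINS in the active helicase, had 86.4, 88.1, 81.5 and 87.2 CPM in siBCOR dex and 89.6, 96.5, 85.1 and 91.3 in siBCOR vehicle. CDC45 had 109, 114, 111 and 106 CPM in siNON dex and 105, 102, 97.9 and 114 in siNON vehicle. No siBCOR library reached the siNON libraries of the same treatment. The change was -0.36 ± 0.06 (adjusted p = 0.000335) in dex and -0.21 ± 0.06 (adjusted p = 0.021) in vehicle, the second lost without siBCOR vehicle replicate 1 or 3 or siNON vehicle replicate 1 or 4 (adjusted p = 0.0501 to 0.0802), and in a fit of the 2 groups alone (adjusted p = 0.0918). GINS1, a subunit of the GINS complex, had 81.9, 84.2, 80.1 and 87.4 CPM in siBCOR dex and 95.9, 83.6, 88.3 and 80.0 in siBCOR vehicle. GINS1 had 98.1, 97.8, 91.9 and 99.5 CPM in siNON dex and 89.5, 80.1, 89.8 and 93.9 in siNON vehicle. Its siBCOR dex libraries lay below its siNON dex libraries, while the vehicle groups overlapped. GINS2, another subunit, had 75.4, 75.2, 71.5 and 82.0 CPM in siBCOR dex and 81.3, 84.3, 83.1 and 83.0 in siBCOR vehicle. GINS2 had 86.2, 87.6, 87.1 and 85.5 CPM in siNON dex and 90.4, 82.7, 82.3 and 89.9 in siNON vehicle. The same held for GINS2, and both were lower in siBCOR dex than in siNON dex, at -0.22 ± 0.06 (adjusted p = 0.0169) and -0.19 ± 0.05 (adjusted p = 0.0132). In vehicle the differences were -0.02 (95% interval -0.16 to 0.11) for GINS1 and -0.06 (95% interval -0.17 to 0.06) for GINS2. GINS3 had 58.2, 53.0, 54.0 and 55.0 CPM in siBCOR dex and 48.3, 51.6, 48.4 and 46.9 in siBCOR vehicle. GINS3 had 58.8, 63.2, 60.7 and 55.3 CPM in siNON dex and 52.8, 46.0, 46.9 and 53.5 in siNON vehicle. Its dex libraries lay above the vehicle libraries in both kinds of cell, with 0.26 ± 0.07 (adjusted p = 0.00955) in siNON cells, lost without siNON vehicle replicate 3 (adjusted p = 0.0745), and with no filter (adjusted p = 0.0633), and, not called, 0.18 ± 0.07 (adjusted p = 0.0657) in siBCOR cells. GINS4, the remaining subunit, had 50.2, 53.8, 54.2 and 53.4 CPM in siBCOR dex and 66.0, 57.2, 57.9 and 59.0 in siBCOR vehicle. GINS4 had 55.0, 54.8, 55.3 and 47.9 CPM in siNON dex and 51.0, 52.1, 43.8 and 56.6 in siNON vehicle. The siBCOR vehicle libraries lay above all others. GINS4 was higher in siBCOR vehicle than in siNON vehicle, at 0.24 ± 0.08 (adjusted p = 0.0424), a call lost without each of 13 of the 16 libraries in turn (adjusted p = 0.051 to 0.287), and in a fit of the 2 groups alone, with DESeq2, with relative log expression scaling, with upper-quartile scaling, with no filter or without both siNON libraries that stood apart (adjusted p = 0.076 to 0.169). Without siNON vehicle replicate 3 its change was 0.12 (adjusted p = 0.287). An antisense gene model over GINS4 had 3.38% as many reads. MCM10, which helps the helicase start, had 93.7, 87.7, 91.4 and 92.4 CPM in siBCOR dex and 108, 85.6, 100.2 and 94.9 in siBCOR vehicle. MCM10 had 83.9, 84.4, 82.2 and 89.9 CPM in siNON dex and 89.7, 99.1, 105 and 88.1 in siNON vehicle. Its groups overlapped and it was called nowhere, with 0.10 (95% interval -0.05 to 0.25) for depletion in dex.

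Among polymerases, clamp and Okazaki genes, 5 of 15 were lower after depletion and 3 higher in dex (all genes: 18.8% and 20.7%). In vehicle 5 were lower and 2 higher (all genes: 8.23% and 8.87%). FEN1, the nuclease that trims Okazaki flaps, had 125, 129.9, 128 and 137 CPM in siBCOR dex and 136, 129, 129.6 and 126 in siBCOR vehicle. FEN1 had 161, 169, 161 and 163 CPM in siNON dex and 159.9, 142, 149 and 157 in siNON vehicle. For FEN1 the siBCOR and siNON libraries did not overlap in either treatment. LIG1, the ligase that seals the nicks, had 69.6, 72.6, 68.5 and 65.9 CPM in siBCOR dex and 69.0, 80.9, 63.1 and 73.7 in siBCOR vehicle. LIG1 had 94.5, 97.4, 106 and 88.7 CPM in siNON dex and 94.4, 103, 78.1 and 97.4 in siNON vehicle. For LIG1 they overlapped in vehicle only. FEN1 changed by -0.33 ± 0.05 (adjusted p = 0.000248) in dex and -0.22 ± 0.05 (adjusted p = 0.00775) in vehicle. LIG1 changed by -0.48 ± 0.09 (adjusted p = 0.000742) in dex and -0.38 ± 0.09 (adjusted p = 0.00743) in vehicle. RFC2, a subunit of the clamp loader, had 83.8, 91.6, 81.2 and 84.3 CPM in siBCOR dex and 89.0, 93.5, 85.3 and 86.5 in siBCOR vehicle. RFC2 had 108, 107, 115 and 105 CPM in siNON dex and 103, 109.7, 92.8 and 106 in siNON vehicle. The siBCOR and siNON libraries overlapped in vehicle but not in dex. The change was -0.35 ± 0.06 (adjusted p = 0.000559) in dex and -0.22 ± 0.06 (adjusted p = 0.0226) in vehicle, the second lost without siBCOR vehicle replicate 1, 3 or 4 or siNON vehicle replicate 1, 2 or 4 (adjusted p = 0.0502 to 0.0691), and in a fit of the 2 groups alone (adjusted p = 0.0815). POLD1, the catalytic subunit of polymerase delta, averaged 95.5 ± 7.80 CPM in siBCOR dex, 91.0 ± 23.5 in siBCOR vehicle, 136 ± 9.65 in siNON dex and 129 ± 14.5 in siNON vehicle (SD, n = 4 each). It was lower after depletion at -0.51 ± 0.14 (adjusted p = 0.00833) in dex and -0.51 ± 0.14 (adjusted p = 0.0158) in vehicle, the second lost without siBCOR vehicle replicate 1 or 3 (adjusted p = 0.0576 to 0.0582), and in a fit of the 2 groups alone (adjusted p = 0.0715). Without both siNON libraries that stood apart the POLD1 changes were -0.60 (adjusted p = 0.000935) in dex and -0.64 (adjusted p = 0.00229) in vehicle, and with siBCOR vehicle replicate 2 left out as well the change in vehicle was -0.81 (adjusted p = 9.4e-07). POLD3, an accessory subunit of the same polymerase, was higher, at 0.32 ± 0.09 (adjusted p = 0.00957) in dex and 0.26 ± 0.09 (adjusted p = 0.0498) in vehicle, the second lost without each of 12 of the 16 libraries in turn (adjusted p = 0.0504 to 0.15), and in a fit of the 2 groups alone, with relative log expression scaling, with upper-quartile scaling or with no filter (adjusted p = 0.0605 to 0.103). The signs for these subunits of polymerase delta were opposite in both treatments.

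RFC5, another clamp loader subunit, had 106, 108, 104 and 112 CPM in siBCOR dex and 117, 108, 114 and 102 in siBCOR vehicle. RFC5 had 111, 109, 110.4 and 108 CPM in siNON dex and 96.2, 96.4, 101 and 96.2 in siNON vehicle. The siNON vehicle libraries lay below all others. RFC5 was higher in siBCOR vehicle than in siNON vehicle, at 0.18 ± 0.05 (adjusted p = 0.0242), and higher in siNON dex than in siNON vehicle, at 0.17 ± 0.05 (adjusted p = 0.0254). The first call was lost without siBCOR vehicle replicate 1 or 3 or siNON vehicle replicate 1, 2, 3 or 4 (adjusted p = 0.0519 to 0.101), and in a fit of the 2 groups alone, with relative log expression scaling, with upper-quartile scaling, with no filter or without both siNON libraries that stood apart (adjusted p = 0.0664 to 0.129) and the second without siNON dex replicate 1, 2 or 3 or siNON vehicle replicate 1, 2, 3 or 4 (adjusted p = 0.0577 to 0.0668), and in a fit of the 2 groups alone or with no filter (adjusted p = 0.0517 to 0.161). DSCC1, a subunit of the alternative loader that serves sister chromatid cohesion, had 45.2, 38.2, 40.5 and 41.2 CPM in siBCOR dex and 39.3, 35.1, 44.6 and 37.3 in siBCOR vehicle. DSCC1 had 28.0, 30.5, 24.7 and 35.6 CPM in siNON dex and 32.7, 36.1, 44.1 and 34.7 in siNON vehicle. The groups overlapped in vehicle but not in dex, where DSCC1 was higher in siBCOR cells, at 0.48 ± 0.11 (adjusted p = 0.00465). RFC3 was higher after depletion in dex, at 0.37 ± 0.13 (adjusted p = 0.0371), and POLA2, the regulatory subunit of polymerase alpha, lower, at -0.17 ± 0.06 (adjusted p = 0.0402). The RFC3 call was lost without siBCOR dex replicate 1, 3 or 4 or siNON dex replicate 1, 2 or 3 (adjusted p = 0.0615 to 0.128), and the POLA2 call without siBCOR dex replicate 1, 2 or 3 or siNON dex replicate 1, 2 or 3 (adjusted p = 0.0686 to 0.131), and with no filter (adjusted p = 0.0646). Without both siNON libraries that stood apart the changes in dex were 0.53 (adjusted p = 9.38e-05) for DSCC1, 0.45 (adjusted p = 0.000476) for RFC3 and -0.26 (adjusted p = 0.000855) for POLA2. PCNA, the clamp, averaged 376 ± 14.8 CPM in siBCOR dex, 347 ± 17.9 in siBCOR vehicle, 387 ± 20.2 in siNON dex and 391 ± 20.5 in siNON vehicle (SD, n = 4 each). Depletion changed it by -0.04 (95% interval -0.16 to 0.08) in dex, and in vehicle it was called lower, at -0.17 ± 0.06 (adjusted p = 0.0476), a call lost without each of 13 of the 16 libraries in turn (adjusted p = 0.0523 to 0.134), and in a fit of the 2 groups alone or with no filter (adjusted p = 0.0512 to 0.118). The antisense gene PCNA-AS1 had 24.3% as many reads as PCNA, and these may be shared.

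The other polymerase genes passed the threshold in no comparison. POLE, the catalytic subunit of polymerase epsilon, had 202, 198, 203 and 176 CPM in siBCOR dex and 251, 236, 210.2 and 224 in siBCOR vehicle. POLE had 227, 234, 248 and 178 CPM in siNON dex and 236, 241, 201 and 217 in siNON vehicle. In siBCOR cells all 4 POLE values in dex lay below those in vehicle. POLE2, its second subunit, had 29.6, 27.8, 27.4 and 28.1 CPM in siBCOR dex and 24.0, 21.5, 25.2 and 24.0 in siBCOR vehicle. POLE2 had 26.1, 24.9, 23.6 and 31.5 CPM in siNON dex and 23.0, 27.5, 30.9 and 29.0 in siNON vehicle. In siBCOR cells all 4 POLE2 values in dex lay above those in vehicle. Neither difference was called, at -0.24 ± 0.09 (adjusted p = 0.067) and 0.25 ± 0.10 (adjusted p = 0.0693). RFC4 had the narrowest intervals among the 8 genes never called: depletion changed it by 0.14 (95% interval 0.02 to 0.27) in dex and by -0.002 (95% interval -0.13 to 0.13) in vehicle. EIF4A2, whose model overlaps that of RFC4 by 4 bases on the other strand, had 300.4% as many reads. POLA1 and PRIM1, of the polymerase alpha and primase complex, had 0.21 (95% interval -0.03 to 0.44) and 0.02 (95% interval -0.18 to 0.21) for depletion in dex.

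Of the 4 cyclin E and E2F genes, 2 were lower and 1 higher after depletion in dex (all genes: 18.8% and 20.7%). In vehicle 1 was lower and 1 higher (all genes: 8.23% and 8.87%). E2F1, an activator of S phase genes, had 73.0, 72.6, 76.6 and 71.5 CPM in siBCOR dex and 75.1, 83.1, 74.8 and 79.1 in siBCOR vehicle. E2F1 had 101, 104, 107 and 86.7 CPM in siNON dex and 93.4, 86.4, 85.6 and 96.2 in siNON vehicle. It was below the siNON libraries after depletion in both treatments, at -0.44 ± 0.07 (adjusted p = 0.000203) in dex and -0.21 ± 0.07 (adjusted p = 0.0392) in vehicle, the second lost without each of 8 of the 16 libraries in turn (adjusted p = 0.0514 to 0.118), and in a fit of the 2 groups alone, with upper-quartile scaling or with no filter (adjusted p = 0.0598 to 0.0817). E2F2, a relative with a similar role, had 40.2, 40.8, 44.8 and 40.3 CPM in siBCOR dex and 58.3, 58.8, 53.1 and 51.5 in siBCOR vehicle. E2F2 had 60.7, 60.2, 57.4 and 48.9 CPM in siNON dex and 66.3, 71.5, 56.1 and 58.8 in siNON vehicle. Its siBCOR dex libraries lay below all others, with -0.45 ± 0.09 (adjusted p = 0.00108) against siNON dex and -0.42 ± 0.09 (adjusted p = 0.00185) against siBCOR vehicle. CCNE1 (chromosome 19, 30302901 to 30315224, plus strand), cyclin E1, had 56.6, 59.7, 59.6 and 60.8 CPM in siBCOR dex and 63.2, 58.6, 60.6 and 60.9 in siBCOR vehicle. CCNE1 had 50.1, 55.2, 47.4 and 41.8 CPM in siNON dex and 48.7, 45.8, 48.3 and 50.3 in siNON vehicle. All 8 siBCOR libraries lay above all 8 siNON libraries. The CCNE1 change was 0.28 ± 0.07 (adjusted p = 0.00682) in dex and 0.33 ± 0.07 (adjusted p = 0.00455) in vehicle, and 0.18 (adjusted p = 0.0246) in dex without both siNON libraries that stood apart. CCNE2, cyclin E2, had 30.9, 29.2, 30.9 and 34.6 CPM in siBCOR dex and 23.7, 17.3, 23.9 and 20.2 in siBCOR vehicle. CCNE2 had 22.8, 27.5, 19.2 and 32.5 CPM in siNON dex and 18.0, 17.0, 30.2 and 20.4 in siNON vehicle. In siBCOR cells the dex libraries lay above the vehicle libraries. CCNE2 was higher with dex in siBCOR cells, at 0.56 ± 0.17 (adjusted p = 0.0274), a call lost without siBCOR dex replicate 1, 3 or 4 or siBCOR vehicle replicate 2 or 4 (adjusted p = 0.0502 to 0.0826), and had 0.25 (95% interval -0.12 to 0.62) in siNON cells, where the libraries overlapped. Without both siNON libraries that stood apart its changes with dex were 0.57 (adjusted p = 0.000527) in siBCOR and 0.32 (adjusted p = 0.0873) in siNON cells, and after depletion in dex, where 0.30 (95% interval -0.06 to 0.67, adjusted p = 0.169) was not called with all libraries, 0.40 (adjusted p = 0.00796). INTS8, which overlaps the end of CCNE2 by 269 bases on the other strand, had 204% as many reads.

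Of the 7 genes of chromatin and repair at the fork, 3 were lower and 3 higher after depletion in dex (all genes: 18.8% and 20.7%). In vehicle 2 were lower and 0 higher (all genes: 8.23% and 8.87%). UHRF1, which brings the maintenance methyltransferase DNMT1 to newly copied DNA, had 187, 181, 194 and 158 CPM in siBCOR dex and 170.0, 201, 168 and 180.3 in siBCOR vehicle. UHRF1 had 271, 306, 262 and 243 CPM in siNON dex and 288, 247, 226 and 258 in siNON vehicle. The siBCOR libraries lay below the siNON libraries in both treatments, with -0.59 ± 0.09 (adjusted p = 0.000158) in dex and -0.50 ± 0.09 (adjusted p = 0.00111) in vehicle. CHAF1B, a subunit of the CAF-1 chaperone that places histones behind the fork, had 95.7, 104, 95.4 and 91.8 CPM in siBCOR dex and 115, 126, 102 and 111 in siBCOR vehicle. CHAF1B had 145, 138, 146 and 119.7 CPM in siNON dex and 142, 137, 121 and 136 in siNON vehicle. The siBCOR and siNON libraries overlapped in vehicle but not in dex. CHAF1B was lower after depletion at -0.50 ± 0.08 (adjusted p = 0.000196) in dex and at -0.24 ± 0.08 (adjusted p = 0.0456) in vehicle, and lower with dex in siBCOR cells, at -0.23 ± 0.08 (adjusted p = 0.0389). The call in vehicle was lost without each of 12 of the 16 libraries in turn (adjusted p = 0.0505 to 0.143), and in a fit of the 2 groups alone, with upper-quartile scaling or with no filter (adjusted p = 0.0594 to 0.0894) and that with dex without siBCOR dex replicate 1, 3 or 4, siBCOR vehicle replicate 1, 2 or 4 or siNON dex replicate 2 (adjusted p = 0.0505 to 0.129), and with relative log expression scaling (adjusted p = 0.0503). CHAF1A, the large CAF-1 subunit, was lower after depletion in dex, at -0.27 ± 0.07 (adjusted p = 0.0118), with -0.07 (95% interval -0.23 to 0.09) in vehicle. SLBP (chromosome 4, 1694458 to 1714468, minus strand), which binds the stem-loop of histone transcripts, had 178, 175, 164 and 159.9 CPM in siBCOR dex and 99.7, 97.0, 103 and 99.6 in siBCOR vehicle. SLBP had 159, 151, 145 and 149 CPM in siNON dex and 107, 104, 109 and 109 in siNON vehicle. All 8 dex libraries lay above all 8 vehicle libraries. SLBP was 1.69-fold higher with dex in siBCOR cells, at 0.76 ± 0.05 (adjusted p = 4.29e-09), and 1.40-fold higher in siNON cells, at 0.49 ± 0.05 (adjusted p = 1.05e-06). It was also higher in siBCOR dex than in siNON dex, at 0.16 ± 0.05 (adjusted p = 0.0185), a call lost without siBCOR dex replicate 1 or 2, siNON dex replicate 3 or siNON vehicle replicate 3 (adjusted p = 0.0524 to 0.0673), and in a fit of the 2 groups alone, with upper-quartile scaling, with no filter or without both siNON libraries that stood apart (adjusted p = 0.0704 to 0.17). In vehicle SLBP went the other way: each siBCOR library lay below each siNON library, a difference that was not called.

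ATAD2, BLM and MCM8 were high in siBCOR dex and have high weights on the axis along which the libraries that stood apart lie. ATAD2, a bromodomain ATPase, had 298, 271, 315 and 333 CPM in siBCOR dex and 164, 112, 173 and 142 in siBCOR vehicle. ATAD2 had 203, 208, 184 and 327 CPM in siNON dex and 131, 132, 192 and 119.8 in siNON vehicle. The siBCOR dex libraries lay above both vehicle groups, and siNON dex replicate 4 fell within the range of siBCOR dex. ATAD2 was higher with dex at 1.04 ± 0.18 (adjusted p = 0.000304) in siBCOR cells and 0.68 ± 0.18 (adjusted p = 0.0101) in siNON cells, and its difference between siBCOR dex and siNON dex was 0.40 (95% interval 0.03 to 0.77, adjusted p = 0.0762). BLM, the Bloom syndrome helicase, averaged 118 ± 9.43 CPM in siBCOR dex, 64.1 ± 10.5 in siBCOR vehicle, 84.6 ± 19.5 in siNON dex and 65.0 ± 12.4 in siNON vehicle (SD, n = 4 each). It was higher with dex in siBCOR cells, at 0.88 ± 0.15 (adjusted p = 0.000386), with 0.38 (95% interval 0.05 to 0.70, adjusted p = 0.101) in siNON cells, and higher in siBCOR dex than in siNON dex, at 0.48 ± 0.15 (adjusted p = 0.0211), the second lost without siBCOR dex replicate 4 or siNON dex replicate 1, 2 or 3 (adjusted p = 0.0605 to 0.0705). MCM8, a helicase of recombination repair, averaged 58.3 ± 3.99, 47.0 ± 9.26, 38.0 ± 10.4 and 45.3 ± 12.9 CPM in the same 4 groups and was higher in siBCOR dex than in siNON dex, at 0.62 ± 0.19 (adjusted p = 0.0178), a call lost without siNON dex replicate 1, 2 or 3 (adjusted p = 0.0571 to 0.0597). Without the 2 siNON libraries that stood apart, depletion in dex gave 0.58 (adjusted p = 0.000188) for ATAD2, 0.61 (adjusted p = 0.000108) for BLM and 0.79 (adjusted p = 2.49e-05) for MCM8, and dex in siNON cells gave 0.63 (adjusted p = 0.000354), 0.33 (adjusted p = 0.0441) and -0.26 (adjusted p = 0.153). These libraries were chosen after the values were seen. In siNON dex, replicate 4 was the highest for ATAD2, BLM and MCM8 (327, 114 and 53.6 CPM). Leaving it out raises the difference from siBCOR dex by itself.

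Whether dex acted unlike in siBCOR and siNON cells was tested by an interaction term, negative where the change with dex was lower in siBCOR cells. It was called for 0 of the 47 genes by edgeR, where 0.0183% of all genes were called higher and 0.0791% lower. An unadjusted p under 0.05 was found for 15 of the 47, beside 3163 of all 16432 genes tested. DESeq2 called 1 of the 47, SLBP, among 33 genes higher and 38 lower. The lowest adjusted p in edgeR were 0.173 for SLBP (0.27 ± 0.07) and 0.196 for RRM2 (-0.27 ± 0.08), followed by ORC1 at -0.27 ± 0.09 (adjusted p = 0.206). The count depended on 1 library. Without siNON dex replicate 4, 5 members were called higher and 7 lower, among 1441 genes higher and 1096 lower of 16566 tested. Those higher were BLM, DSCC1, MCM8, POLE2 and SLBP, and those lower ORC1, MCM4, POLA2, POLE, RRM2, E2F1 and CHAF1B. With siNON vehicle replicate 3 also left out, BLM at 0.56 (adjusted p = 0.0285), DSCC1 at 0.41 (adjusted p = 0.045), MCM8 at 0.58 (adjusted p = 0.0319) and SLBP at 0.27 (adjusted p = 0.0404) were higher and RRM2 at -0.28 (adjusted p = 0.0404) was lower. They were among 1189 genes higher and 601 lower of 16527 tested.

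Of 76 other replication and G1/S genes that are not among the 47, all tested, 17 were lower and 18 higher after depletion in dex, and 12 lower and 9 higher in vehicle, with medians of 0.04 and 0.001. In dex these are 22.4% lower and 23.7% higher, near the 18.8% and 20.7% of all genes tested. In vehicle they are 15.8% and 11.8%, against 8.23% and 8.87% of all genes. The retinoblastoma partners E2F4 and E2F5 moved in opposite directions. E2F4 averaged 55.2 ± 2.38 CPM in siBCOR dex, 53.6 ± 2.63 in siBCOR vehicle, 84.8 ± 4.71 in siNON dex and 78.4 ± 4.64 in siNON vehicle (SD, n = 4 each), which gave -0.62 ± 0.06 (adjusted p = 4.07e-06) in dex and -0.55 ± 0.06 (adjusted p = 2.9e-05) in vehicle. E2F5 averaged 29.4 ± 1.43, 37.5 ± 2.71, 18.1 ± 1.19 and 25.2 ± 1.08 CPM in the same groups, which gave 0.70 ± 0.07 (adjusted p = 4.57e-06) and 0.57 ± 0.07 (adjusted p = 5.67e-05). UNG, which removes uracil from DNA, was lower at -0.43 ± 0.05 (adjusted p = 2.98e-05) in dex and -0.27 ± 0.05 (adjusted p = 0.00278) in vehicle, CDK2, the cyclin E kinase, lower at -0.38 ± 0.05 (adjusted p = 6e-05) in dex, and E2F7, an atypical repressor of the family, higher at 0.55 ± 0.08 (adjusted p = 0.000332) in vehicle. With dex, 10 of the 76 were lower and 4 higher in siBCOR cells, and 6 lower and 7 higher in siNON cells. In siBCOR cells these are 13.2% and 5.26%, where 12.5% and 10.5% of all genes were called. In siNON cells they are 7.89% and 9.21%, against 8.64% and 10.7% of all genes. The D-type cyclins CCND1 and CCND2, which act in G1 ahead of cyclin E, were lower in both: CCND1 at -0.84 ± 0.07 (adjusted p = 6.38e-08) in siBCOR and -0.77 ± 0.07 (adjusted p = 1.53e-07) in siNON cells, and CCND2 at -0.82 ± 0.10 (adjusted p = 7.35e-06) and -0.70 ± 0.10 (adjusted p = 3.94e-05). E2F3, an activator E2F, and TICRR, which helps activate the helicase, were lower with dex in siBCOR cells, at -0.43 ± 0.07 (adjusted p = 0.000144) and -0.54 ± 0.10 (adjusted p = 0.000686), and in siNON cells E2F5 was lower, at -0.48 ± 0.07 (adjusted p = 8.41e-05), and TFDP2, a dimer partner of E2F proteins, higher, at 0.27 ± 0.06 (adjusted p = 0.00236). Of 30 G2/M genes, 8 were higher and 3 lower after depletion in dex, and 6 higher and 1 lower in vehicle, with medians of 0.23 and 0.08. In dex these are 26.7% higher and 10.0% lower, where 20.7% and 18.8% of all genes were called. In vehicle they are 20.0% and 3.33%, against 8.87% and 8.23% of all genes.

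BCOR peaks of any class lay near the start sites of the 47 genes about as often as near those of all genes tested. Of the 47, 11 (23.4%) had a peak within 1 kb, against 20.3% of the genes tested, and 28 (59.6%) within 50 kb, against 54.3%. Dex-enriched peaks lay within 50 kb of 10 of the 47 (21.3%), against 13.6% of the genes tested. The authors' lists hold 3055 dex-enriched, 267 vehicle-enriched and 8587 shared peaks, with no score above 0, so peaks could not be ranked. Within 1 kb, ORC1, MCM3, CDC45, POLE2, RFC3, UHRF1, CHAF1A, ATAD2 and BLM had a shared peak, TYMS a dex-enriched peak over its start (chr18:657534-657868, hg19) and ORC6 a vehicle-enriched peak 526 bases upstream (chr16:46722714-46723032, hg19). The peak of MCM3 (chr6:52149164-52149482, hg19) began 197 bases inside the gene, and that of CDC45 (chr22:19466805-19467123, hg19) lay 226 bases upstream. MCM7 fell just outside, with a shared peak 1168 bases into the gene. TK1, the member with the lowest fold change after depletion in both treatments, had no peak within 50 kb, and the nearest to RRM2 lay 15916 bases downstream of its start. By role, peaks within 1 kb were counted at 3 of 11 licensing genes, 1 of 6 of helicase activation, 2 of 15 of polymerases and clamp, 1 of 4 of nucleotide supply, 0 of 4 of cyclin E and E2F, and 4 of 7 of chromatin and repair.

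**Figure D5:**
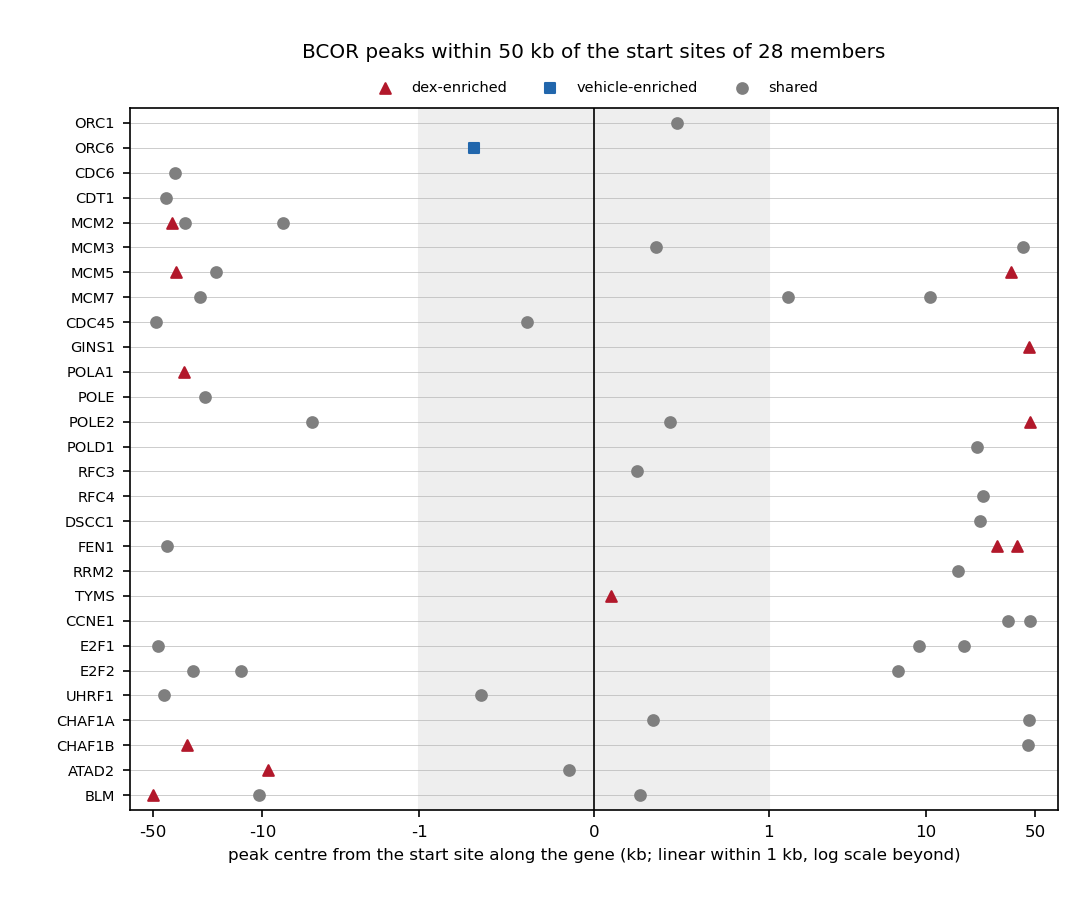
Position of each BCOR peak centre within 50 kb of the start site of a member, along the direction of the gene (kb; linear within 1 kb, shaded, and log scale beyond), for the 28 members with a peak, by class of peak. Dex-enriched peaks are triangles, the vehicle-enriched peak is a square and shared peaks are circles. TYMS alone has a dex-enriched peak within 1 kb, and ORC6 alone a vehicle-enriched one.

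The change with depletion was also counted by peak, with no test between the sets. Of the 11 with a peak within 1 kb, 6 were lower and 3 higher after depletion in dex (median -0.24), against 18 lower and 6 higher of the 36 without (median -0.18), and in vehicle 3 were lower and 0 higher, against 13 and 4. With dex, 0 of the 11 were lower and 2 higher in siBCOR cells, against 4 and 3 of the 36, and 2 were higher in siNON cells, against 5. Of all genes tested, with or without a peak, 18.8% were lower and 20.7% higher after depletion in dex, and 8.23% and 8.87% in vehicle. With dex, 12.5% of all genes were lower and 10.5% higher in siBCOR cells, and 10.7% were higher in siNON cells. The peak counts come from the position of one start per gene, and they say nothing of how strongly BCOR was bound.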

How the data were processed

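Poly(A) RNA of 16 libraries (4 groups of 4, biological replicates per the labels) and BCOR ChIP-seq peaks were analysed. The authors deposited raw read counts over exons for 65572 transcripts, made with HOMER on hg19 with no adjustment per the file headers, and the submitters' processing notes name Trimmomatic, TopHat2, HOMER 4.10.3 and, for ChIP-seq, Bowtie 0.12.9 and bedtools. No strand setting is given in the sources used here. The deposited peak lists (hg19) carry a score of 0 for each peak, so only positions were used, and the rule behind the peak classes is not given in the sources used here. The series' design text names 3 RNA replicates per group and the labels 4, and all 4 were used.

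For each of 27896 symbols the transcript with the most reads was kept, and 134 transcripts with no symbol, which held 0.0664% of counts, were left out. Depth was 18580291 to 28054809 counts per library. Counts were fitted over all 16 libraries with edgeR 4.0.16 (R 4.3.3, limma 3.58.1; TMM scaling, filterByExpr, quasi-likelihood F test), with p adjusted by Benjamini and Hochberg over 16432 genes and called at 0.05. Standard errors were taken as the fold change over the square root of F, and intervals are 95%. Tables were made with Python 3.11.15. Peaks were counted within 1 kb and 50 kb of the start of each chosen transcript, and promoters were matched by symbol to RefSeq on GRCh38.p14 with no conversion of coordinates. The fit was tested on simulated data. Alternatives were other scalings, DESeq2 1.42.0, no filter, the longest transcript, the replicate number as a block, fits of the compared groups alone and each library left out, and, chosen after seeing the data, the libraries that stood apart left out together.

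The members and all gene lists were chosen with earlier results of these data known. Named are BCOR and NR3C1, each member called in any comparison, from the members never called the most abundant per length of each role, the one with the narrowest interval and those with a peak that is not shared, and at most 4 other replication genes called per comparison with the smallest p. POLA1 and PRIM1 fall outside this rule and were named after their values were seen, to account for each polymerase gene. Per-library values are given for members with the 2 smallest adjusted p per role and comparison.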

Additional observations from a re-analysis of the deposited data

Results flagged for a closer look

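A library was set apart for a gene where its gap to the nearest of the other 3 of its group was larger, as a share of the group's range, than Dixon's 95% critical value, which chance alone gives in about 5 of 100 groups, and 14 of 188 gene and group pairs met this. In siNON dex replicate 4 this held for 8 genes. ORC2 was at 48.9 CPM, where the other 3 had 38.4 to 39.6. GINS4 was at 47.9 CPM, where the other 3 had 54.8 to 55.3. POLA1 was at 111 CPM, where the other 3 had 83.3 to 87.6. POLD1 was at 122 CPM, where the other 3 had 140.0 to 143. CHAF1A was at 163 CPM, where the other 3 had 186 to 190.0. ATAD2 was at 327 CPM, where the other 3 had 184 to 208. BLM was at 114 CPM, where the other 3 had 73.2 to 78.2. MCM8 was at 53.6 CPM, where the other 3 had 32.4 to 33.0. In siBCOR dex replicate 4 it held for 3. MCM4 was at 516 CPM, where the other 3 had 474 to 479. POLE was at 176 CPM, where the other 3 had 198 to 203. RRM1 was at 266 CPM, where the other 3 had 228 to 233. In siNON vehicle replicate 3 it held for 2. MCM2 was at 434 CPM, where the other 3 had 503 to 515. RFC5 was at 101 CPM, where the other 3 had 96.2 to 96.4. In siBCOR dex replicate 3 it held for 1. E2F2 was at 44.8 CPM, where the other 3 had 40.2 to 40.8.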

How the results depend on the processing

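In siBCOR dex against siNON dex the number of members lower was 23 to 26 under every alternative run, and the number higher 3 to 12 with 1 library left out. With each library left out in turn the genes called ranged from 4198 to 8171 in siBCOR dex against siNON dex (6491 with all libraries), 1810 to 3465 in siBCOR vehicle against siNON vehicle (2810), 2894 to 4540 in siBCOR dex against siBCOR vehicle (3787), 2531 to 4051 in siNON dex against siNON vehicle (3180) and 2 to 2537 for the interaction (16). The members ranged from 23 to 25 lower in the first, 1 to 5 higher and 8 to 19 lower in the second, 4 to 6 higher and 2 to 5 lower in the third, 5 to 8 higher and 0 to 3 lower in the fourth, and 0 to 5 higher and 0 to 7 lower for the interaction.

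Other settings moved these counts. In siNON dex against siNON vehicle, no filter left 2 higher and 1 lower, and 1 was lower with RLE or upper-quartile scaling, 2 with DESeq2, 1 without the 2 siNON libraries that stood apart, and 4 with siBCOR vehicle replicate 2 left out as well. In siBCOR dex against siBCOR vehicle, 9 were higher in both of those last settings, beside 3106 and 2961 of all genes. In siBCOR vehicle against siNON vehicle, 1 was higher in a fit of the compared groups alone (7 lower, 1528 genes), with no filter, with RLE and with upper-quartile scaling, and 2 with the replicate block and without the first pair of libraries. Leaving out all 3 gave 6372 genes here and 9458 in siBCOR dex against siNON dex. For the interaction, DESeq2 called 1 higher and 71 genes, and the genes were 5 with no filter or RLE, 6 with upper-quartile scaling and 3 with the block. Leaving out the pair gave 4 higher, 1 lower and 1790 genes, and all 3 gave 4, 1 and 2059. The causes were not tested. The replicate numbers gave no clear pairing of the samples: 6 of 24 same-number pairs correlated above 0.1 (-0.526 to 0.502). Pairs with different numbers were not set beside them, so a shared batch can be neither shown nor excluded by these values. With the replicate block members were 8 higher and 24 lower in siBCOR dex against siNON dex, and 2 and 14 in vehicle, and the calls of ORC6 in the first and of E2F1, PCNA, GINS4 and POLD3 in the second were lost (adjusted p = 0.0604 to 0.0677). Of the calls, 26 of 33, 8 of 20, 6 of 9 and 2 of 7 held under every alternative in the 4 comparisons in the order above. No replicate pair was alike within sampling noise (lowest chi-square per degree of freedom 2.45), and CPM values rest on the depths given.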
